A study of Mus musculus with 6 samples.

Results

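The polo-like kinase family was examined in mammary epithelial cells that lack 1 of its members, Plk2. The members were every gene probe on the array whose transcript accession belongs to Plk1, Plk2, Plk3, Plk4 or Plk5. The 5 genes, of 20145 matched to the array, had 5 probes among 55681, 1 for each gene, so a gene's level and its probe's level cannot be separated. The samples were 3 preparations from Plk2 -/- mice (Plk2 null) and 3 from wild-type mice, each on its own single-colour Agilent array. All mice were females, 8 weeks old and of strain 129sv/C57Bl6, and their glands had been taken apart to yield primary mammary epithelial cells. The allele of Plk2, the part of the gene it removes, the source of the wild-type mice and whether a sample came from 1 mouse are not stated in the labels. P-values therefore measure the spread between these samples, which may be partly technical.

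Polo-like kinases are serine/threonine kinases that carry a kinase domain near one end and polo-box domains near the other, through which most of them dock on substrates already phosphorylated by another kinase. Plk1 acts in mitosis, from entry and spindle assembly to cytokinesis, and its transcript accumulates in G2 and M phase. Plk4 starts the duplication of centrioles. Plk2 and Plk3 were found as genes induced quickly by serum or stress, are linked to p53 and checkpoint signalling, and are also expressed in cells that do not divide. Plk5 is the divergent member, described mainly in brain and thought to lack kinase activity in human.

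The promoters are shown because Plk1 and Plk4 lay high together and Plk2 and Plk3 share an early-response background. The 120 bases before the annotated start are printed 5′ to 3′ from the RefSeq promoter table on GRCm38.p6, which held all 5 members. Capitals mark the CCAAT box (CCAAT) in Plk1, the palindromic cAMP response element (TGACGTCA) in Plk2 and the GC box (GGGCGG, or CCGCCC on the other strand) in Plk2 and Plk3. In Plk4 no letters are in capitals. Plk1 also holds a GC box 43 bases before the start, left in lower case, and Plk5, not printed, holds a CCAAT box and 4 GC boxes in its window.
Plk1, chr7:122159315-122159434, plus strand: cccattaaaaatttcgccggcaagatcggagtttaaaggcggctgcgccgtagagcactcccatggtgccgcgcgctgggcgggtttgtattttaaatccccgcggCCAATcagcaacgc
Plk2, chr13:110394924-110395043, plus strand: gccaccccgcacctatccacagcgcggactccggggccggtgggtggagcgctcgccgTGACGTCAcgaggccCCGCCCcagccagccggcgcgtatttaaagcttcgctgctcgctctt
Plk3, chr4:117133964-117134083, minus strand: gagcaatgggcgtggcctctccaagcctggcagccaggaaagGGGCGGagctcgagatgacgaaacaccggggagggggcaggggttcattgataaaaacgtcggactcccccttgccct
Plk4, chr3:40799831-40799950, plus strand: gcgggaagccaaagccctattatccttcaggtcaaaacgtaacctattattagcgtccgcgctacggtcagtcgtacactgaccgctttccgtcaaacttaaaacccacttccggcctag

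Plk1 also held the cell cycle homology region (CHR, TTTGAA), a motif known from genes whose transcripts peak in G2 and M phase. It begins 31 bases into the transcript, in capitals in the following 30 bases.
Plk1, chr7:122159453-122159482, plus strand: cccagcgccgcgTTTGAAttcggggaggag
On both strands and over windows of 250 bases before to 50 after the start, TTTGAA was found in 17.9% of 32851 promoters, CCAAT in 37.4%, GGGCGG in 35.7% and TGACGTCA in 1.79%. Among the members the CHR was matched in Plk1 and TGACGTCA in Plk2 (62 bases before the start), while Plk4 held none of these 4 motifs. The E2F core (GGCGGG), found in 35.3% of promoters, was matched in both Plk1 and Plk4. It was also matched in Plk2 and Plk5, but not in Plk3. TGACGTCA contains the core TGACG on both strands. That core, found in 20.8% of promoters, was matched at 2 places in Plk3 and at 1 in Plk4. These matches are descriptions of letters in a window and not evidence of binding.

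Across the 5 genes, Plk2 fell in null cells, Plk1 and Plk4 lay higher without passing the test over all genes (Plk4 with only 1 wild-type array well above background), and Plk3 and Plk5 differed by less, at 0.762-fold and 0.933-fold. Differences are null minus wild type in log2 units, after each array had been centred on the 75th percentile of its gene spots, and were tested with limma over 24625 entries (14433 of them named genes) calling adjusted p-values (Benjamini-Hochberg) under 0.05. Of the 5 members 1 was called, against 0.564% of all entries, and it was Plk2, the gene targeted in these mice. No other member was called. All 5 passed the filter, which asked for 3 or more of the 6 arrays with the probe well above background, Plk2 through its wild-type arrays alone. The groups did not overlap for 4 of the 5, against 31.6% of all entries (19.6% with null higher, 12% with null lower), and 3 of the 5 had an unadjusted p under 0.05, against 23% of all entries. Plk2 is in both of these counts through its genotype, so they were not read as a result on the family. With 3 arrays in each group an exact permutation test (2-sided) cannot give a p under 0.1, the value it gave for Plk1, Plk2, Plk3 and Plk4; for Plk5 it gave 0.7.

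**Figure D1:**
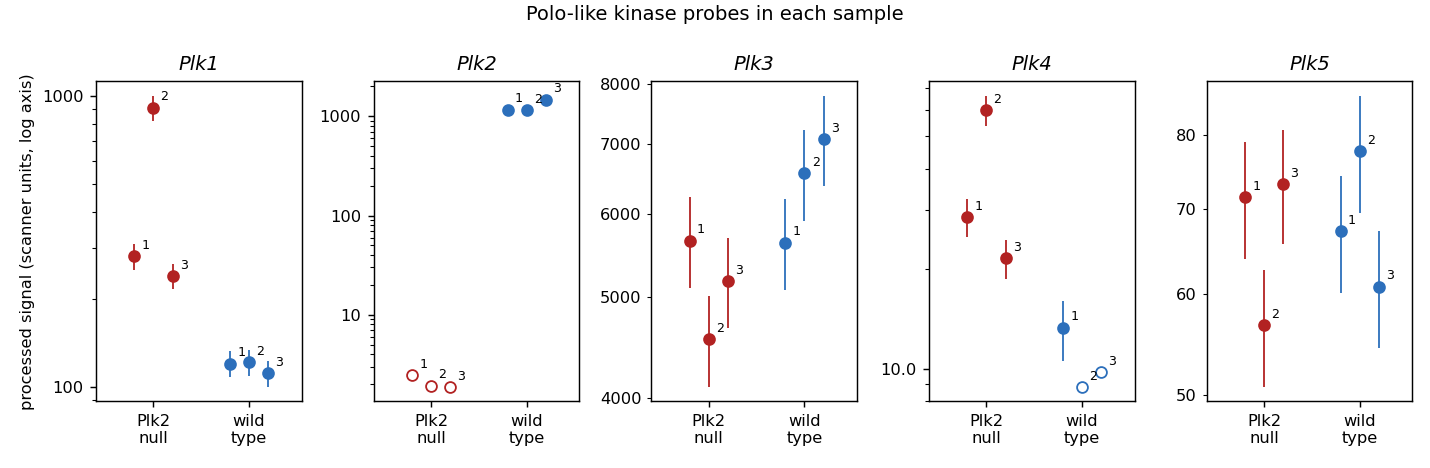
Processed signal (scanner units, log axis, a separate scale in each panel) of the 5 polo-like kinase probes in Plk2 null (left, red) and wild-type samples (right, blue), numbered by replicate. Filled points were well above background and carry the scanner software's error, open points were not. The Plk2 signals lie at 1.87 to 2.44 in null samples against 1160 to 1472 in wild type, and null sample 2 is the highest sample for Plk1 and Plk4.

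Plk2, the kinase targeted in these mice, was measured by the probe for NM_152804 (chromosome 13). Its processed signals were 2.44, 1.93 and 1.87 in null samples 1, 2 and 3, against 1169, 1159.8 and 1472 in wild-type samples 1, 2 and 3. All null values were low and all wild-type values high, with no overlap. No null array had the probe well above background, and every wild-type array did. The log2 level was -7.055 ± 0.12 in null cells and 2.26 ± 0.10 in wild-type cells (SD, n = 3 each). Taking the lowest gene spot well above background on each null array (9.07 to 11.5 signal units) as the level there, the fall of Plk2 in null cells was at least 134-fold. The limma adjusted p of 3.62e-06 is for the unbounded values, where the scanner software's error of each null signal was 100% of that signal. The arrays carry 308 negative control spots, whose median signals were 2.34, 1.86 and 1.93 on null arrays 1, 2 and 3. The highest of those spots reached 193.9, 28.2 and 64.5 on null arrays 1, 2 and 3, so the bound holds only for the level taken. Plk2 lay above 86.0%, 73.7% and 18.2% of those spots on null arrays 1, 2 and 3, within their range, and above all of them on every wild-type array. In the authors' deposited table Plk2 had a p of 5.13e-09, the lowest of 59305 gene rows, and a signed fold of -24.9 (mutant over wild type). The normalized intensities in that table were 52.7 to 53.7 for null samples and 1281 to 1355 for wild type. Since the removed part of the gene is unknown here, the probe may lie outside it, in which case it reports transcript level and does not check the deletion.

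Plk1, the mitotic kinase, was higher in every null sample than in any wild-type sample. The signals of its probe (NM_011121, chromosome 7) were 282, 912 and 241 in null samples 1, 2 and 3, against 120.4, 121 and 112 in wild-type samples 1, 2 and 3. The wild-type samples lay close together, and null sample 2 stood far above the other null samples. Log2 levels averaged 0.53 ± 1.01 in null cells and -1.16 ± 0.16 in wild-type cells (SD, n = 3 each). The difference was 1.68 (SE 0.47; 95% interval 0.55 to 2.82), or 3.21-fold, and it missed the threshold (limma adjusted p = 0.115; unadjusted p = 0.0102). Without null sample 2 it was 1.101 (SE 0.18; limma adjusted p = 0.101), over 1.5 times smaller. Its difference lay above 98.95% of all entries. In such bulk samples more cells of a type and more RNA per cell cannot be told apart. The authors' deposited table gave Plk1 a signed fold of 2.58 and an unadjusted p of 0.0466.

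Plk4, the centriole duplication kinase, showed the same order of null samples at a much dimmer signal. Its probe (NM_011495, chromosome 3) gave 28.6, 60.0 and 21.5 in null samples 1, 2 and 3, against 13.3, 8.83 and 9.79 in wild-type samples 1, 2 and 3. All null arrays had it well above background but only wild-type array 1 did, so the wild-type level is poorly measured. The scanner software's error was 2.70 for the signal of 8.83 and 6.27 for that of 60.0. Log2 levels averaged -3.04 ± 0.70 in null cells and -4.65 ± 0.32 in wild-type cells (SD, n = 3 each). The difference was 1.60 (SE 0.37; 95% interval 0.72 to 2.48), or 3.04-fold (limma adjusted p = 0.0886), and 1.20 (SE 0.23) without null sample 2. With an offset added to the background-corrected signal (normexp, offset 50) the difference shrank from 1.60 to 0.36 (limma adjusted p = 0.199). With the deposited table's intensities it was 0.43. With array weights it was 1.71 and passed (limma adjusted p = 0.0461). In the authors' deposited table its signed fold was 1.35 with an unadjusted p of 0.0579.

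Plk3, the stress-linked kinase nearest to Plk2 in its biology, was slightly lower in null cells. The signals of its probe (NM_013807, chromosome 4) were 5658, 4550.5 and 5177 in null samples 1, 2 and 3, against 5633, 6569 and 7085 in wild-type samples 1, 2 and 3. The signals of null sample 1 and wild-type sample 1 overlap, while the centred levels do not, with the highest null level at 4.43 and the lowest wild-type level at 4.45. Log2 levels averaged 4.22 ± 0.21 in null cells and 4.61 ± 0.14 in wild-type cells (SD, n = 3 each). The difference of -0.39 (SE 0.17; 95% interval -0.79 to 0.01) did not pass (limma adjusted p = 0.226) and corresponds to a fold between 0.577 and 1.01. It shrank from -0.39 to -0.11 with spike-in scaling, there -0.42 relative to the median of all entries. The authors' deposited table gave Plk3 a signed fold of -1.40 and an unadjusted p of 0.0283.

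Plk5 did not separate the groups. The signals of its probe (NM_183152, chromosome 10) were 71.5, 56.7 and 73.2 in null samples 1, 2 and 3, against 67.2, 77.8 and 60.8 in wild-type samples 1, 2 and 3, and the groups overlapped throughout. All 6 arrays had it well above background. Log2 levels averaged -2.04 ± 0.31 in null cells and -1.94 ± 0.27 in wild-type cells (SD, n = 3 each). The difference was -0.10 (SE 0.22; limma adjusted p = 0.811), and its 95% interval spans a fold of 0.647 to 1.35. A change of that size in either direction is not excluded by these arrays, and the sign turned with spike-in scaling and without null sample 2 or wild-type sample 2.

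**Figure D2:**
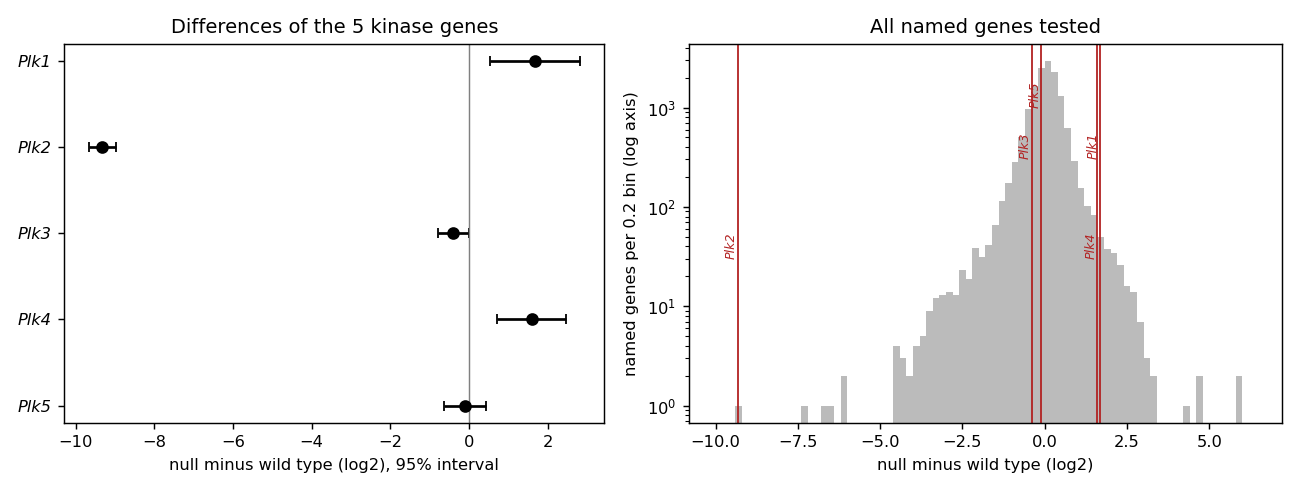
Left, null minus wild type difference (log2) with its 95% interval from limma for each kinase gene; the point for Plk2 is the unbounded difference of -9.32, with null signals at background. Right, the same difference over the 14433 named genes tested (log axis, bins of 0.2) with the 5 members as lines: Plk2 lies at the far low end, Plk1 and Plk4 in the upper tail, and Plk3 and Plk5 in the bulk.

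Set against each other by how they moved over the 6 arrays, Plk1 lay closest to Plk4 and Plk3 closest to Plk5. The root mean square distance between profiles, each centred on its own mean, was 0.26 log2 units for Plk1 and Plk4 and 0.22 for Plk3 and Plk5, against 1.04 to 1.25 between a member of the first pair and one of the second. The median distance of all named genes was 1.03 from Plk1 and 0.92 from Plk4, but 0.36 from Plk3 and from Plk5. Genes that move little lie close by this distance, so the closeness of Plk3 and Plk5 is less marked. Plk2, not measured above background in null samples, was left out of these distances. Plk4 was kept although only wild-type array 1 had it well above background, so its distances rest partly on poorly measured values. With normexp the null minus wild type difference was 1.33 for Plk1 but 0.36 for Plk4. In null samples 1, 2 and 3 Plk1 lay 1.04, 2.85 and 1.16 above the wild-type mean and Plk4 1.23, 2.41 and 1.17 above it. Plk3 shifted by -0.40, -0.60 and -0.18 and Plk5 by -0.15, -0.38 and 0.23 in the same samples. Null sample 2 was therefore the extreme sample for all of these 4 genes, high for Plk1 and Plk4 and low for Plk3 and Plk5. Profiles over 6 arrays that share 1 slide are few points, and the distances are descriptions.

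By the same distance, the named genes nearest to Plk1 were Kif20b, a mitotic kinesin, at 0.14, and the kinetochore genes Knl1 and Kntc1, at 0.16 each. The median over all named genes was 1.03. Nearest to Plk4 were Mastl, which encodes the mitotic kinase Greatwall, at 0.11, the condensin subunit gene Ncaph at 0.12 and Prr11 at 0.13, against a median of 0.92. The wild-type level of Plk4 is poorly measured, which limits these distances. Nearest to Plk3 were the transcription factor gene Sox9 at 0.05, Tmbim1 at 0.05 and Cdkn1a, which encodes the cyclin-dependent kinase inhibitor p21, at 0.06, with a median of 0.36. Their differences were -0.45 (SE 0.17) for Sox9, -0.44 (SE 0.16) for Tmbim1 and -0.46 (SE 0.17) for Cdkn1a, none of them called. For Plk5 they were Cplx2 at 0.06, Nupr1l at 0.08 and Fbxo27 at 0.08, with a median of 0.36.

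The genes that work with the kinases were followed in 8 lists holding 121 genes, of which 114 were tested. None of the 114 was called by limma over all genes, while 52 had an unadjusted p under 0.05, 48 of them higher and 4 lower in null cells. Other settings called between 0 and 15 of them. Over all entries 13.5% were higher and 9.54% lower at an unadjusted p under 0.05, and the median difference was 0.03. Of the 24625 entries, 13015 had a positive difference and 11610 a negative one. Chek2, Cdc25a, Cdc25c, Cep192, Cenpj, Trp53, Atm, Jun and Egr1 each stand in more than 1 of these lists.

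Genes of Plk1 activation and of the control of mitotic entry mostly lay high in null cells. Of 12 genes 11 were tested, 10 had a positive difference and the median was 1.56 (0.99 with normexp). At an unadjusted p under 0.05, 7 were higher and 1 lower, and 0 were called by limma. The list is not limited to activators, since it also holds Wee1 and Pkmyt1, kinase genes that restrain mitotic entry. Wee1 was the lower gene (-0.46, SE 0.15), while Pkmyt1 lay higher (0.89, SE 0.27). Cyclin A2 (Ccna2) differed by 2.34 (SE 0.51), cyclin B1 (Ccnb1) by 2.60 (SE 0.58), cyclin B2 (Ccnb2) by 2.08 (SE 0.47) and Tpx2, an activator of Aurora A, by 2.06 (SE 0.48), with limma adjusted p-values of 0.0833 to 0.0908. Ccnb1 had log2 levels of 0.52, 2.72 and 1.14 in null samples 1, 2 and 3, against -0.46, -1.42 and -1.53 in wild-type samples 1, 2 and 3. Null sample 2 was again the highest and the groups did not overlap. Of the direct activators of Plk1, chosen here after their values were seen, the kinase gene Aurka lay 1.56 higher (SE 0.42; limma adjusted p = 0.105), and its cofactor Bora differed by 0.15 (SE 0.53), with overlapping groups; the difference between these genes was not tested.

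Docking partners and substrates of Plk1 gave a similar picture. All 20 tested of 22 lay above zero, and the median was 1.47 (0.97 without null sample 2, 0.84 with normexp); 14 had an unadjusted p under 0.05 and 0 were called by limma. The shugoshin gene Sgo1, which protects centromere cohesion, differed by 2.28 (SE 0.42), the checkpoint kinase gene Bub1 by 2.56 (SE 0.47), the cytokinesis factor Ect2 by 1.94 (SE 0.41) and the kinesin Kif20a by 2.21 (SE 0.47), with limma adjusted p-values of 0.0644 to 0.0799. Sgo1 had log2 levels of 0.20, 1.66 and 0.17 in null samples 1, 2 and 3, against -1.30, -1.88 and -1.61 in wild-type samples 1, 2 and 3, without overlap. The median shift of the list was 0.90, 2.46 and 1.13 in null samples 1, 2 and 3, beside 1.04, 2.85 and 1.16 for Plk1 itself. A CHR was found in the promoter window of 9 of the 16 genes of this list that have one in the table, in 3 of 6 for the mitotic entry list, in 3 of 18 for the centriole list, in 6 of 16 other proliferation markers and in 3 of 6 fibroblast markers, beside 17.9% of all promoters.

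**Figure D3:**
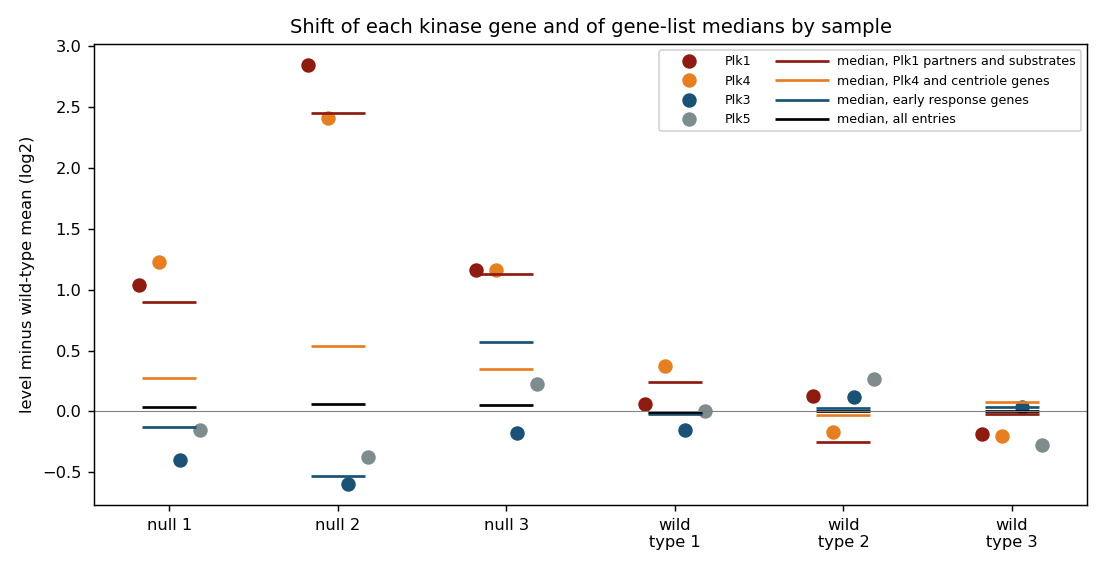
Level minus the wild-type mean (log2) in each sample, with the null samples on the left. Points are kinase genes, set slightly apart for legibility, and bars are medians of gene lists; Plk2 is off the scale and not drawn. Plk1, Plk4 and the median of the Plk1 partners are highest in null sample 2, at 2.85, 2.41 and 2.46.

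The machinery that controls the amount of Plk1 was followed at both ends. The anaphase-promoting complex, which tags Plk1 for destruction at mitotic exit, had 14 of 15 genes tested, all positive, and a median of 0.31. That median was 0.59 with spike-in scaling, there 0.28 relative to the median of all entries. In this complex 5 genes had an unadjusted p under 0.05 and 0 were called by limma. Its activator Cdc20 (1.86, SE 0.45) and its ubiquitin-conjugating enzyme Ube2c (1.94, SE 0.58) lay highest, while the subunits Cdc26 (0.67, SE 0.14) and Anapc5 (0.52, SE 0.16) differed less, with limma adjusted p-values of 0.0811 to 0.137. Transcription factors of the cell cycle, namely the MuvB core, the pocket proteins, E2F factors, B-Myb and FoxM1, had 13 of 14 tested and 12 positive. Their median was 0.53, and 0.31 without null sample 2. It was 0.82 with spike-in scaling, there 0.50 relative to the median of all entries. Of these genes 5 had an unadjusted p under 0.05 and 0 were called by limma. The MuvB subunit gene Lin9 differed by 0.64 (SE 0.15), the p107 gene Rbl1 by 0.96 (SE 0.31), the B-Myb gene Mybl2 by 1.33 (SE 0.44) and Tfdp2 by 0.59 (SE 0.20), with limma adjusted p-values of 0.0958 to 0.157.

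Genes of centriole duplication, where Plk4 acts, were mostly higher in null cells without a call. All 23 were tested, 19 had a positive difference and the median was 0.35. With spike-in scaling the median was 0.63, there 0.32 relative to the median of all entries. At an unadjusted p under 0.05, 10 were higher and 0 lower, and 0 were called by limma. Stil, the Plk4 partner and substrate, differed by 1.39 (SE 0.43), the cartwheel gene Sass6 by 0.79 (SE 0.20), the centriole capping gene Ccp110 by 0.82 (SE 0.20) and Poc1a by 1.15 (SE 0.33), with limma adjusted p-values of 0.0919 to 0.134. Stil had log2 levels of -2.02, -0.68 and -2.19 in null samples 1, 2 and 3, against -2.60, -3.35 and -3.10 in wild-type samples 1, 2 and 3. The list's median shift was 0.28, 0.54 and 0.35 in null samples 1, 2 and 3, beside 1.23, 2.41 and 1.17 for Plk4.

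Regulators and reported substrates of Plk2 did not move one way. Of 16 genes 14 were tested, 7 were positive and 7 negative, and the median was 0.02 beside 0.03 for all entries (0.30 beside 0.31 with spike-in scaling); 3 were higher and 2 lower at an unadjusted p under 0.05 and 0 were called by limma. Rasgrf1, a Ras exchange factor reported in neurons as a Plk2 substrate, differed by -1.86 (SE 0.27; limma adjusted p = 0.0523). Its log2 levels were -0.75, -0.85 and -0.25 in null samples 1, 2 and 3, against 1.71, 1.15 and 0.86 in wild-type samples 1, 2 and 3, with no overlap. Sipa1l1, which encodes the synaptic Plk2 substrate SPAR, differed by -0.44 (SE 0.13), the nucleophosmin gene Npm1 by 0.47 (SE 0.16) and the checkpoint kinase gene Chek2 by 1.18 (SE 0.26), with limma adjusted p-values of 0.0835 to 0.161.

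Regulators and reported substrates of Plk3 had all 12 genes tested, 9 positive and a median of 0.61 (0.40 with normexp), with 6 higher and 1 lower at an unadjusted p under 0.05 and 0 called by limma. The phosphatase gene Cdc25c differed by 2.62 (SE 0.65), Vrk1 by 1.06 (SE 0.23), Chek2 by the 1.18 given above and the calcium-binding gene Cib1 by 0.68 (SE 0.17), with limma adjusted p-values of 0.0807 to 0.0960. Early response genes, a class to which Plk2 and Plk3 belong, had all 16 tested, 5 positive and 11 negative with a median of -0.08, which was 0.20 with spike-in scaling (there -0.11 relative to the median of all entries), 0.20 without null sample 2 and -0.36 without null sample 3; 1 had an unadjusted p under 0.05 and 0 were called by limma. That gene was Egr3 (0.62, SE 0.20; limma adjusted p = 0.138), while Egr2 (0.34, SE 0.20), Klf4 (-0.16, SE 0.20) and Klf6 (-0.17, SE 0.17) had larger p. The median shift of the early response genes was -0.13, -0.53 and 0.57 in null samples 1, 2 and 3, so that null samples 2 and 3 went opposite ways, and among the null samples the centred level of Plk3 was lowest in sample 2 and highest in sample 3.

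**Figure D4:**
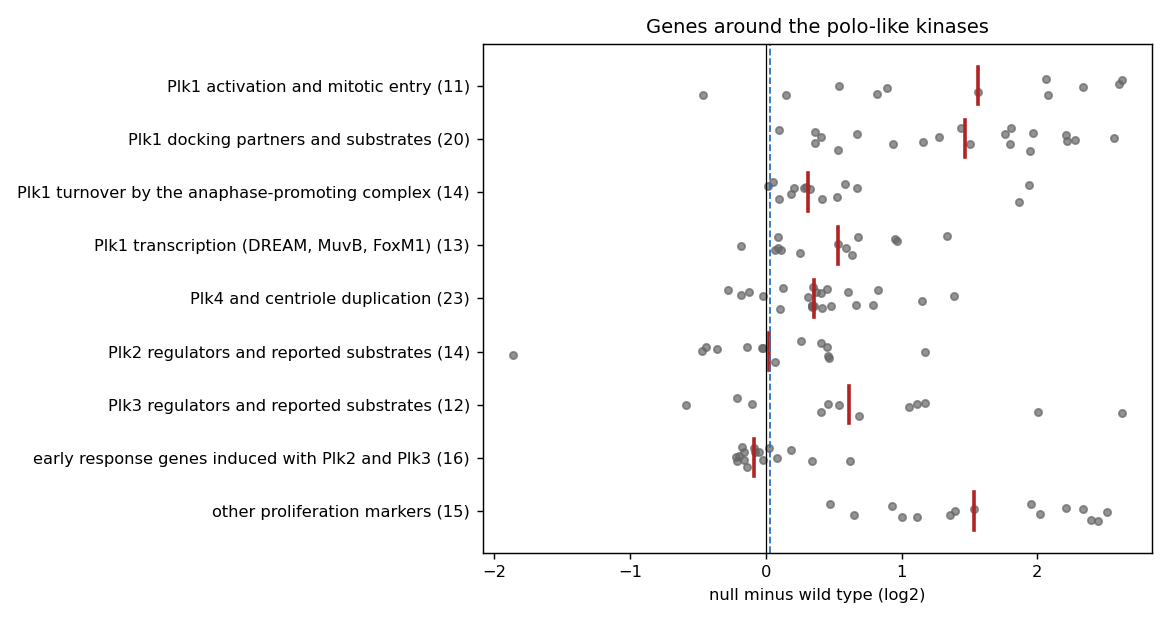
Null minus wild type difference (log2) of each tested gene in the 8 lists around the polo-like kinases and in a list of other proliferation markers, with the number tested in parentheses. Red bars are list medians and the dashed line is the median of all entries, 0.03. The lists of Plk1 activation and mitotic entry, Plk1 partners and proliferation markers have medians of 1.56, 1.47 and 1.53.

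Other features of the samples moved with these values, and their part in them was not tested. Other proliferation markers, of which Ccne1 is also in the Plk3 list, had a median of 1.53 over 15 of 17 genes, all positive, with shifts of 0.82, 2.62 and 1.24 in null samples 1, 2 and 3. The highest of those by p were Nusap1 (2.39, SE 0.47), Birc5 (2.34, SE 0.46), Tk1 (2.21, SE 0.45) and Cdca3 (2.52, SE 0.52). All 15 lymphocyte markers had a negative difference, with a median of -2.41 and summed levels of 8.03 to 15.6 in null samples against 30.1 to 52.5 in wild type. Zap70, the lowest p among them, differed by -2.70 (SE 0.43), Cd79b by -2.49 (SE 0.43), Cd3e by -2.11 (SE 0.38) and Lck by -1.02 (SE 0.20). Fibroblast markers had a median of -0.56 with 10 of 10 negative and summed levels of 1165 to 1643 in null against 1737 to 1897 in wild-type samples. Endothelial markers (median -0.30, 9 of 9 negative; median -0.11 without null sample 2, -0.51 without null sample 3 and -0.48 without wild-type sample 1) had summed levels of 78.9 to 154.6 against 122.6 to 167.3, and macrophage markers (median -0.50, -0.29 without wild-type sample 1, 7 of 8 negative) of 136.4 to 151.7 against 138.3 to 190.8, in null against wild-type samples. Scaled on spike-ins, fibroblast markers had a median of -0.27, endothelial markers of -0.02 and macrophage markers of -0.22, beside 0.31 for all entries. None of these marker genes was called by limma. An unadjusted p under 0.05 was found for 14 of 15 lymphocyte, 7 of 10 fibroblast, 0 of 9 endothelial and 3 of 8 macrophage markers. Over all entries the share was 23%, and 11610 of 24625 had a negative difference. Of the 15 lymphocyte markers, 10 were well above background on all 6 arrays, so their median includes dim probes. Of the tested markers of other cell types none was missing from the wild-type arrays, and Cd8a was well above background on 1 null array and Cd79a, Ms4a1 and Cd22 on 2. As for the labelled cell type, all 12 epithelial markers, among them the keratin genes Krt8 and Krt18 and the adhesion gene Epcam, were well above background on all 6 arrays. Of these, 3 were higher and 1 lower in null cells at an unadjusted p under 0.05, against 13.5% higher and 9.54% lower over all entries, and 0 were called by limma. Krt14 differed by 0.92, Acta2 by 0.65, Cldn7 by 0.34 and Cldn4 by -0.71. The median of the 12 epithelial markers was 0.08. It was -0.03 without null sample 3, -0.00313 without wild-type sample 1 and -0.00486 with the deposited table. With spike-in scaling it was 0.36, there 0.05 relative to the median of all entries.

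The genes that flank Plk2 on chromosome 13 were also followed. Of the 10 nearest protein-coding genes on each side in RefSeq order all 20 were on the array and 16 were tested. None was called by limma, and 4 had an unadjusted p under 0.05, against 23% of all entries. The mitochondrial assembly gene Ndufaf2 differed by 0.68 (SE 0.16), the phosphodiesterase gene Pde4d by -0.66 (SE 0.15), Il6st by -0.49 (SE 0.17) and Il31ra by -1.16 (SE 0.34), all named after their values were seen. The immediate neighbours Gapt and Actbl2 were too dim to test, and the nearest tested genes were Rab3c on one side (-0.35, SE 0.45) and Gpbp1 on the other (0.14, SE 0.13). Groups did not overlap for 6 of the 16 genes, 2 higher and 4 lower, against 31.6% of all entries.

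**Figure D5:**
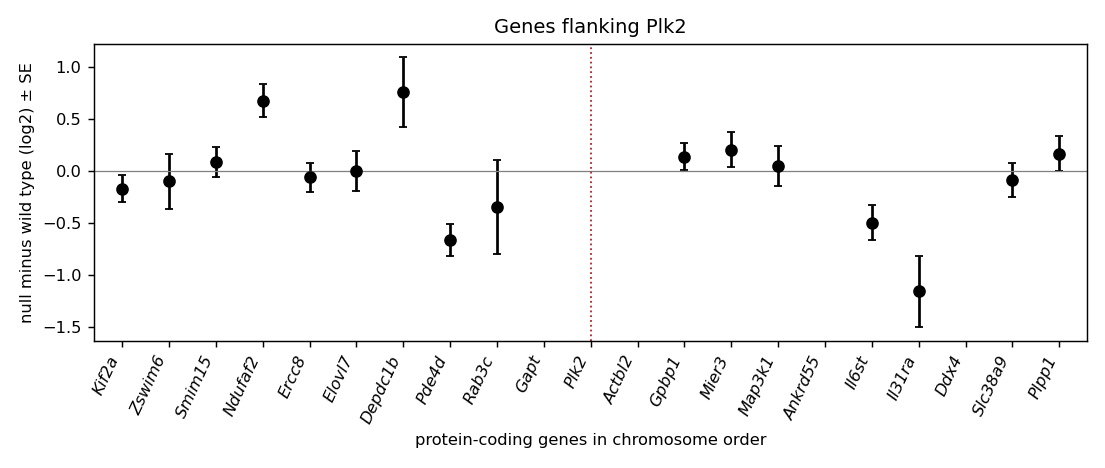
Null minus wild type difference (log2, bars are SE from limma) of the protein-coding genes next to Plk2 in chromosome order, 10 on each side; names without a point were not tested and Plk2 itself (dotted line) is off the scale. The tested neighbours lie between -1.16 and 0.76.

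On the array as a whole, 52.8% to 56.2% of gene spots were well above background on null arrays and 51.8% to 53.8% on wild-type arrays. All 6 arrays lay on 1 slide, the null arrays in row 2 and the wild-type arrays in row 1, so row and genotype cannot be told apart. Spike-in control spots lay 3.30, 3.56 and 3.89 log2 units above the 75th percentile on null arrays 1, 2 and 3, against 3.94, 3.89 and 3.78 on wild-type arrays 1, 2 and 3. Scaling on them moved the median of all entries to 0.31, and relative to that median Plk1 differed by 1.65, Plk4 by 1.57, Plk3 by -0.42 and Plk5 by -0.13. The small number of arrays limits the precision.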

How the data were processed

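RNA from 6 samples, 3 Plk2 null and 3 wild type, was labelled with Cy3, per the labels' protocols. Per the file headers, arrays of Agilent design 028005, annotated on mm9, were quantified by Feature Extraction 11.0.1.1 from Agilent (GE1_1100_Jul11). The intensity used is the processed signal, background-corrected by that software and deposited without normalization between arrays; the deposited spot and local background intensities served an alternative. The deposited well-above-background and outlier flags were used as given. The authors' deposited table holds normalized intensities, an unadjusted p-value and a signed fold given here as a score; how it was normalized is not given in those sources.

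Log2 signals were centred on each array's 75th percentile over gene spots. A total of 1119 outlier spots were left out and none was saturated. Accessions were matched without version to the RefSeq GRCm38.p6 table, used for names and gene order (26582 of 55681 probes). A probe counted as well above background if any of its spots was. For each gene the kept probe with the highest mean was used. Tests used limma 3.58.1 in R 4.3.3 (lmFit, eBayes). Steps were tested on simulated data: of 50 changed genes of each size among 24625 entries, limma found 18% of those changed by 1 log2 unit, 82% by 2, 88% by 3 and 92% by 4 units, and made 4 false calls. These shares hold for the spread that was simulated, which is not given here. They do not carry over to the genes above, where Ccnb1 (2.60, SE 0.58) and Bub1 (2.56, SE 0.47) were not called. Members and lists were chosen with earlier results of these data known. Named were the 4 genes with the smallest p in each list, the nearest tested neighbours of Plk2 and any that was called (none was), and the 3 nearest profiles of each member measured in both groups; other genes were named after their values were seen. Same-numbered null and wild-type samples did not deviate together (correlations of -0.12, 0.04 and -0.02), so the numbers were not taken to pair samples.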

Additional observations from a re-analysis of the deposited data

How the results depend on the processing

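Plk2 was called in all 18 alternatives run on it. Its unbounded differences ran from -9.36 to -9.25 when a sample was left out. They were -4.50 with normexp, which adds an offset of 50, and -4.64 with the deposited table. Plk2 is the targeted gene and entered through its wild-type arrays alone, so these calls are not a check of the result. The bound of at least 134-fold given above is the measure of its fall. Plk1 was positive in all 19 and called in none (1.101 to 2.005 with a sample left out), and Plk4 was called with array weights alone (1.71; 1.20 to 1.82 with a sample left out). Plk3 was negative in all 19 and never called (-0.50 to -0.29 with a sample left out). Plk5 turned to 0.18 with spike-in scaling and ran from -0.26 to 0.0386 with a sample left out, positive at 0.0386 without null sample 2 and 0.03 without wild-type sample 2. With the replicate number as a block (replicate block) no member's call changed (Plk1 limma adjusted p = 0.159, Plk4 0.162), and 8 entries were called. The filter on all 6 arrays leaves out Plk2 and Plk4.

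Calls over all entries numbered 139, against 1222 with normexp, 340 with median centring, 392 with spike-in scaling, 31 without the filter on dim probes, 379 with the filter on all 6 arrays, 848 with trend and robust moderation, 1080 with array weights, 764 with the deposited table, and 7 to 707 with a sample left out (707 without null sample 3, 46 without null sample 2, 7 without null sample 1; 29, 7 and 43 without wild-type samples 1, 2 and 3). The calls split into 56 higher and 83 lower in null cells, against 176 and 164 with median centring and 263 and 129 with spike-in scaling. Of the genes in the 8 lists, 0 were called, against 15 with normexp, 3 with median centring, 5 with spike-in scaling, 3 with the filter on all 6 arrays, 1 with every probe on its own, 1 with the mean of a gene's probes, 12 with trend and robust moderation, 8 with array weights, 5 with the deposited table and 0 to 2 with a sample left out (2 without null sample 3). Of the neighbours of Plk2, 1 was called with normexp, 1 with trend and robust moderation and 1 with the deposited table; these settings were applied to the neighbours after the data were seen. The cause of these shifts was not tested.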
